A study of Caenorhabditis elegans with 2 samples.

Results

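The 9 genes described here supply or interpret dafachronic acid, the steroid hormone of the C. elegans nuclear receptor DAF-12. They are ncr-1, ncr-2, strm-1, daf-36, hsd-1, dhs-16, daf-9, emb-8 and din-1. They were chosen by name from 19973 annotated nuclear protein-coding genes, and all 9 were found in the annotation. DAF-12 binding was profiled by ChIP-seq in whole larvae of the fourth larval stage (L4), both sexes together, in 2 biological replicates of 1 group. The strain, OP222, carries the eGFP-tagged daf-12 transgene wgIs222 in an unc-119(ed3) background, and both replicates share this genotype. No untagged strain, other stage or hormone condition was analysed here, so the data hold no contrast. In whole larvae, strong binding in few cells and weak binding in many cells cannot be told apart.

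Worms cannot make sterols and take cholesterol from the diet. NCR-1 and NCR-2 move it within cells, the oxygenase DAF-36 and the dehydrogenase DHS-16 modify it, and the cytochrome P450 DAF-9 carries out the last step to dafachronic acid. HSD-1 is a hydroxysteroid dehydrogenase linked to the same supply. EMB-8 is the reductase that passes electrons to cytochrome P450 enzymes, and STRM-1 is a methyltransferase that diverts sterols away from hormone synthesis. Hormone-bound DAF-12 promotes reproductive growth, and DAF-12 without hormone works with the corepressor DIN-1 to promote the dauer larva.

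Each value below belongs to a region that the authors listed for both replicates together (the pooled list) or for 1 replicate. The pooled list has 30000 regions, that of replicate 1 has 30000 and that of replicate 2 has 23934. A further list holds the 48 peaks that passed a threshold on reproducibility (IDR). The authors label the pooled list as peaks and background given as input for IDR, so a region in it need not be a peak. The signal of a region is the authors' enrichment value on an unstated scale, so regions are ranked within their own list, with 1 as the strongest, and signals are not compared between lists. A q-value below 0.05 was reached by 5.7% of pooled regions, by 16.7% of replicate 1 regions and by 59.6% of replicate 2 regions. The lists give no counts, so depth is unknown and a region's signal has no error of its own. A region was assigned to a gene when its summit lay in the gene or within 3000 bp of it. With 1 group there was nothing to test, and shares over all genes stand beside the counts for these genes.

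The strongest pooled regions of the 9 genes lay at din-1, the cofactor gene, at ranks 37 and 50, and the next, at the hormone synthesis gene daf-9, ranked 1855. At q below 0.05 only din-1 had a pooled region, 1 of 9 genes, against 13.7% of all protein-coding genes, so the count over the 9 is near the background. The count depends on the list. In replicate 1, 4 of the 9 genes had a region at q below 0.05 (daf-9, dhs-16, ncr-2 and din-1), against 35.7% of all genes, with dhs-16 at rank 753 and ncr-2 at rank 1820. In replicate 2 all 9 had one, against 70.6%. In the pooled list din-1 had 2 such regions, and 1.55% of all genes had 2 or more. The gene had the only thresholded peak among the 9, where 0.175% of all genes had one. The thresholded list held the pooled regions down to rank 48, so this follows from the rank of 37 and is no separate support. Weaker regions were present at all 9 genes, as they were at 90.9% of all genes. Together the 9 genes had 49 pooled regions, of which 13 lay at din-1. The median per gene was 5, against 2 over all genes. Their windows were longer as well (median 10266 bp against 8027 bp), and the number per kb of window, summed over genes, was 0.421 against 0.302.

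**Figure D1:**
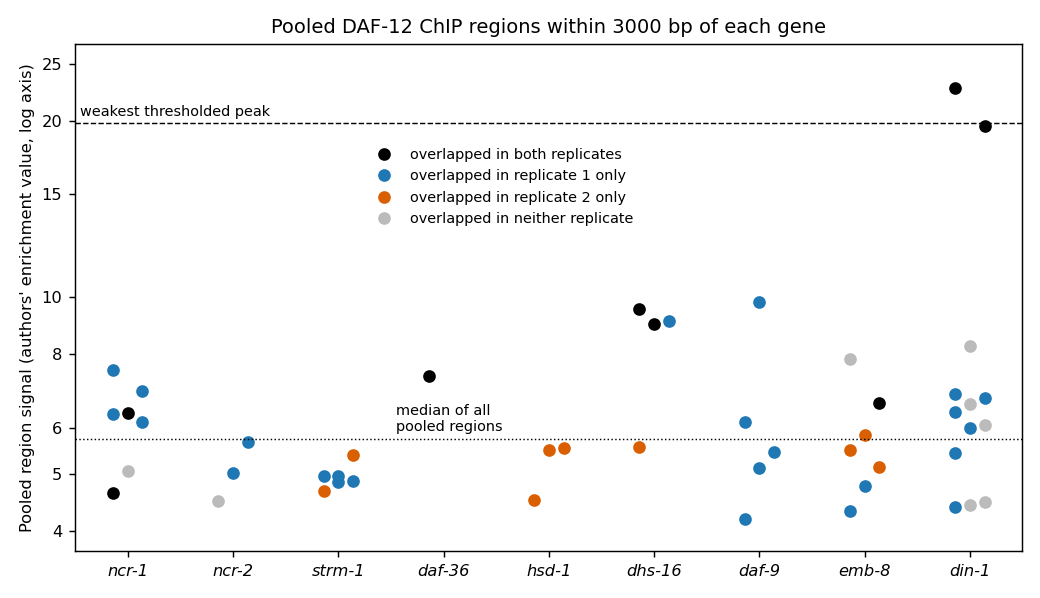
Signal of every pooled region (y axis, log scale, authors' enrichment value) within 3000 bp of each gene, ordered from sterol transport to the cofactor; each point is 1 region, coloured by the replicate lists that overlap it. The regions of din-1 at 22.7 and 19.6 stand apart, and no region of the other 8 genes exceeds 9.81.

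The din-1 gene (WBGene00008549, chromosome II, 11614770 to 11633609, minus strand) encodes a transcriptional corepressor and has 7 annotated isoforms. Its strongest region had a signal of 22.7 in the pooled list, 15.8 in replicate 1 and 6.42 in replicate 2, at ranks 37, 40 and 565. The replicate 1 summit lay at the pooled summit (gap of 0 bp) and the replicate 2 summit 34 bp away. A second strong region (11635287 to 11635590) lay in the intergenic stretch upstream of the gene. It had a signal of 19.6 in the pooled list, 10.5 in replicate 1 and 6.35 in replicate 2, at ranks 50, 275 and 592. Its summits in the replicates lay 16 and 85 bp from the pooled one. Both regions therefore had overlapping calls in each replicate. The second was no thresholded peak, since that list ended at rank 48 with a signal of 19.8.

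Among protein-coding genes, the starts nearest to the strong regions were those of different din-1 isoforms. The strongest summit (11619343) fell in the 5' UTR of isoform d, 735 bp downstream of its start. Isoform d has 1701 bp of coding sequence. Only isoform g is shorter, with 558 bp, and it starts 2224 bp downstream of the summit. A short form of DIN-1 is known as the DAF-12 cofactor, and the files do not say which isoform encodes it. The same summit fell in an intron of the 5 longer isoforms, whose starts lay 11294 to 14266 bp upstream of it. The second summit (11635439) lay 1830 bp upstream of the first start of the long isoforms, that of isoform a, which has 6633 bp of coding sequence. It also lay 112 bp from the annotated snoRNA gene ZK20.9. The strongest summit lay 586 bp from the noncoding RNA gene F07A11.10 and 682 bp from the snoRNA gene F07A11.15. At both summits the start of a noncoding gene was thus nearer than any din-1 start. Peak positions alone do not show which start or gene a region belongs to.

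**Figure D2:**
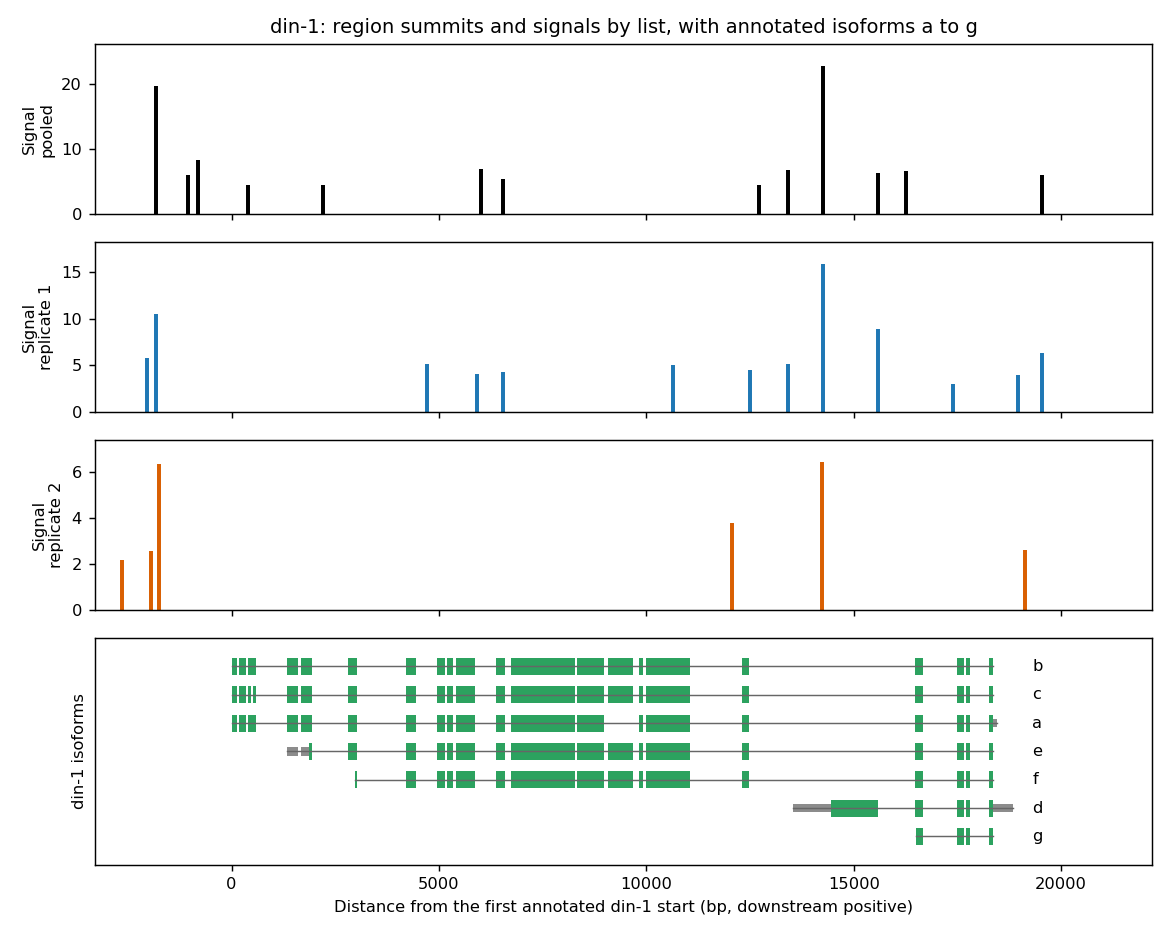
Summits of the regions at din-1 by distance from its first annotated start (x axis, bp) with their signal in the pooled, replicate 1 and replicate 2 lists (y axes, each on its own scale from 0), above the 7 isoforms with coding exons in green and untranslated exons in grey. The highest bars in the pooled list and in both replicates stand upstream of the gene and in the first exon of isoform d.

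The sequence at the strongest din-1 summit is shown because it holds 2 copies of AGTGCA, a DAF-12 half-site hexamer, on 1 strand. Capitals mark the hexamers, the strand is plus and the build is ce11 (chrII:11619355-11619384).
din-1 strongest region: gttgaaAGTGCAaccaaAGTGCAcacgtcg
The copies are 5 bp apart and centred 26 bp from the summit. Pairs of AGTGCA or AGGACA on 1 strand with this spacing occurred within 100 bp of the summit in 8 of 30000 pooled regions (0.0267%). The din-1 region had the highest rank of these, and the next ranked 7569. The spacing was known before this count was made, so the count is a description.

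The other 11 regions at din-1 had pooled signals of 4.39 to 8.26, and none had overlapping calls in both replicates. The highest of them (8.26, rank 4301) lay 814 bp upstream of the first start and was called in neither replicate alone. A region in the coding exon of isoform d (summit 11618015) ranked 11118 in the pooled list and 797 in replicate 1, with no call in replicate 2. A region 120 bp upstream of the start of isoform d had a signal of 6.75 in the pooled list and 5.14 in replicate 1. Its summit fell in noncoding exons of F07A11.10 and of the snoRNA gene F07A11.15. A pooled region of rank 668 (signal 11.7) lay 3057 bp beyond the end of din-1, just outside the window, and nearest to the start of F07A11.5. Just inside the limit, at 2993 bp from its gene, was an emb-8 region of signal 6.62.

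The length of din-1 bears on these counts, because a long window collects more regions. Of the 228 protein-coding genes with a window at least as long as the 24840 bp of din-1, 38.6% had a pooled region at q below 0.05, and 6.58% had 2 or more. A pooled region with calls in both replicates was present at 75% of them, and 21.5% had one that was also below that q. In replicate 1 a region at q below 0.05 was present at 75% of these long genes, and in replicate 2 at 97.4%. Any pooled or replicate 1 region was present at 100%, and any replicate 2 region at 99.1%. A thresholded peak, which amounts to a pooled rank of at most 48, was present at 0.439% of them, which is din-1 alone. None of these long genes had a stronger best region (0%), and over all genes 0.0551% had one.

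At daf-9 (WBGene00000905, chromosome X, 6196927 to 6200823), the gene of the final enzyme of the pathway, the strongest region lay at the first start and was seen in replicate 1 only. Its summit (6197003) lay 76 bp downstream of the start of isoform a, in its first coding exon. The pooled signal was 9.81 (rank 1855, q = 0.0574). The stronger overlapping replicate 1 region had a signal of 7.15 (rank 2427, q = 0.0122). Its summit lay 134 bp from the pooled one, 58 bp upstream of the start. A weaker replicate 1 region (3.64, rank 20112, q = 0.445) also overlapped the pooled region, with a summit 150 bp downstream of the start. Over all genes, 14.9% had a stronger best region. All 5 pooled regions at daf-9 were overlapped in replicate 1 and none in replicate 2. Replicate 2 called 4 regions in the window, the strongest with a signal of 3.89 (rank 5600) at 6195231, which is 1696 bp upstream of the start. Another of them, 345 bp upstream (2.27, rank 19845), overlapped a weak replicate 1 region (3.45, rank 22193), with summits 248 bp apart. No pooled region covered the stretch these shared.

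The daf-9 region is shown in sequence because it carries AGTGCA 11 bp from its pooled summit, on the minus strand. The hexamer starts 1 base after the first base of the isoform a start codon, 62 bp downstream of the transcript start. The summit of the stronger replicate 1 region lay 58 bp upstream of that transcript start. Capitals mark the hexamer, and the minus strand is printed (ce11, chrX:6196977-6197006).
daf-9 strongest region: cacggttctccaAGTGCAtgattgaccgtg

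The dehydrogenase gene dhs-16 (WBGene00000979, chromosome V, 5983745 to 5985509) had regions in both replicates, none of them in the gene itself. The strongest pooled region (signal 9.54, rank 2121, q = 0.0700) lay 1658 bp upstream of the dhs-16 start, which is the nearest coding start. The strongest overlapping region had a signal of 3.83 (rank 18243 of 30000) in replicate 1 and of 4.81 (rank 2528 of 23934) in replicate 2. Their summits lay 120 and 181 bp from the pooled one. A weaker replicate 2 region (3.25, rank 9585) also overlapped the pooled region, with a summit 1640 bp upstream of the start. A second region seen in both replicates (9.01 pooled, 7.17 in replicate 1, 2.95 in replicate 2) lay 24 bp upstream of the neighbouring gene C10F3.7, 1370 bp beyond the end of dhs-16. Another (9.10 pooled, 8.93 in replicate 1, where it ranked 753) lay in a coding exon of fut-8 and had no replicate 2 call. It held AGTGCA 85 bp from its pooled summit. The replicate 1 summit lay 106 bp from the pooled one, on the side away from the hexamer. A weak region 176 bp upstream of dhs-16 (5.57, rank 16211) was called in replicate 2 only. Of the 4 regions at dhs-16, 2 were thus nearer to other coding starts than to its own.

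At daf-36 (WBGene00007536, chromosome V, 10223513 to 10225710), which encodes the oxygenase of the first step, the single pooled region lay beyond the 3' end. It had a signal of 7.33 in the pooled list (rank 6953), 3.09 in replicate 1 (rank 26752) and 4.34 in replicate 2 (rank 3811), with replicate summits 49 and 3 bp from the pooled one. Its summit fell in a coding exon of C12D8.20, 531 bp downstream of the start of that gene. No pooled region lay in the daf-36 gene or upstream of it, and the replicate 1 region 270 bp upstream of its start (signal 3.94, rank 17271) had no counterpart in the other lists.

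The hydroxysteroid dehydrogenase gene hsd-1 (WBGene00012394, chromosome I, 13720125 to 13724453) had no replicate 1 region in its window. Its 3 pooled regions had signals of 4.51 to 5.55, below the median of all pooled regions, 5.74. All 3 were overlapped in replicate 2, where their signals were 2.78 to 3.25. The 2 upstream of hsd-1 lay in introns of lagr-1.

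At emb-8 (WBGene00001262, chromosome III, 5196680 to 5199677), the P450 reductase gene, the 7 pooled regions had signals of 4.32 to 7.84. The strongest (rank 5387) was called in neither replicate alone and lay 39 bp downstream of the start of moc-6, beyond the emb-8 end. The region nearest the emb-8 start, in a coding exon 225 bp downstream of it, had a pooled signal of 5.83 and a replicate 2 signal of 2.65. The 1 region overlapped in both replicates (6.62 pooled, 3.39 in replicate 1, 3.88 in replicate 2) lay in an intron of hira-1.

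The sterol transporter gene ncr-1 (WBGene00003561, chromosome X, 4472244 to 4488857) had 7 pooled regions, 5 of them inside the gene. The strongest (7.52, rank 6331) lay in a coding exon 236 bp downstream of the start of the shorter transcript. Replicate 1 had an overlapping region of signal 4.43 (rank 13170), and replicate 2 had none. The 2 regions with calls in both replicates were an intronic one (6.35 pooled, 3.80 and 2.63 in replicates 1 and 2) and one 2548 bp upstream (4.64 pooled, 3.92 and 2.14), which was nearer to F46H6.5.

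Its paralog ncr-2 (WBGene00003562, chromosome III, 8258345 to 8265805) had 2 replicate 1 regions at q below 0.05 and no region called in both replicates. Its 3 pooled regions had signals of 4.51 to 5.68. In replicate 1, a region 2576 bp beyond the gene had a signal of 7.61 (rank 1820, q = 0.00852) and lay 26 bp upstream of F09G8.7. An intronic one had a signal of 6.79 (rank 3037, q = 0.0170). Neither was overlapped in replicate 2, where the best ncr-2 region ranked 13038. No pooled region lay upstream of ncr-2.

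The methyltransferase gene strm-1 (WBGene00019198, chromosome III, 2402070 to 2406335) had the lowest best signal of the 9 in the pooled list. Its 6 pooled regions had signals of 4.68 to 5.39, all below the pooled median, and 76.6% of all genes had a stronger best region. Replicate 1 overlapped 4 of the 6 and replicate 2 the other 2. The region nearest the strm-1 start, 610 bp upstream, was closer to the start of cic-1.

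**Figure D3:**
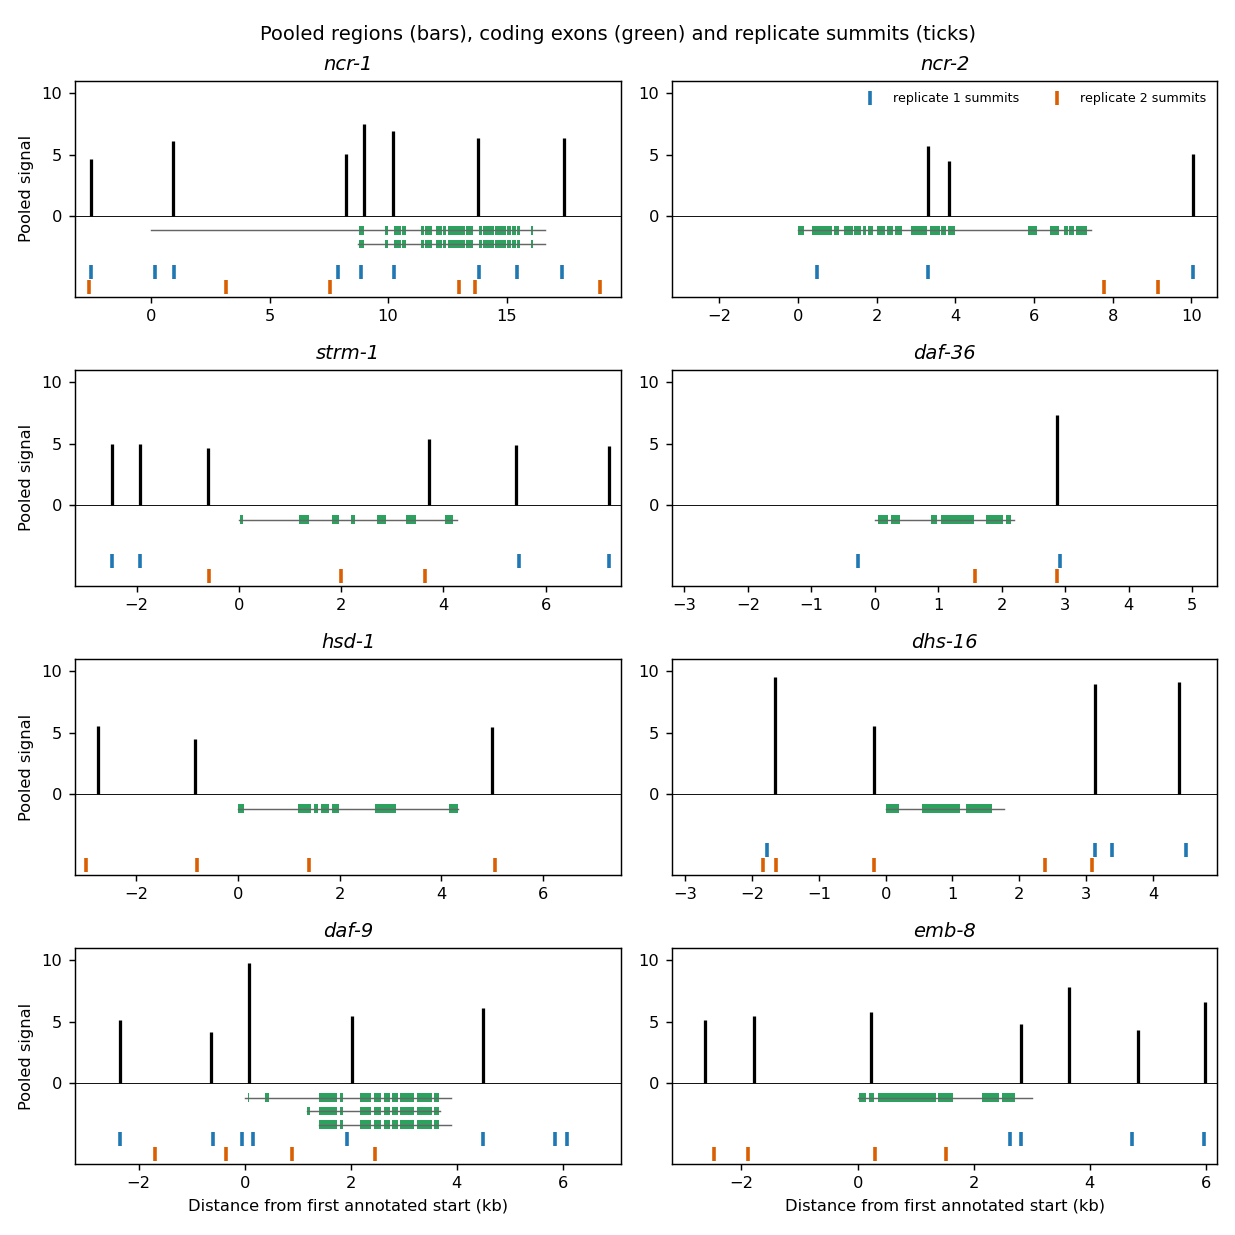
Pooled regions at the 8 genes other than din-1 by distance from the first annotated start (x axis, kb, downstream positive), with pooled signal (y axis, black bars), coding exons of each transcript in green, and summits of the replicate 1 and replicate 2 lists as ticks below. At daf-9 the tallest bar, 9.81, stands at the first start with replicate 1 ticks beside it, and at hsd-1 there are no replicate 1 ticks.

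Regions at these genes recurred between replicates about as often as pooled regions in general. Of the 49, 8 were overlapped by at least 1 bp in both replicates (16.3%), against 17.8% of all pooled regions. Replicate 1 overlapped 65.3% of them and replicate 2 34.7%, against 62.1% and 39.3%. The 8 regions belonged to 5 of the 9 genes, 2 each at din-1, dhs-16 and ncr-1 and 1 each at daf-36 and emb-8. A region in both replicates was present at 35.3% of all genes. The genes daf-9, hsd-1, strm-1 and ncr-2 had no such pooled region. Of 12 overlapping pairs of replicate calls at the 9 genes, 2 had no pooled region over the shared stretch, the one at daf-9 given above and one just beyond the 3' end of din-1.

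The order of the genes by strongest region differed between lists except at the top. In the pooled list it was din-1, daf-9 (9.81), dhs-16 (9.54), emb-8 (7.84), ncr-1 (7.52), daf-36 (7.33), ncr-2 (5.68), hsd-1 (5.55) and strm-1 (5.39). In both replicates din-1 was first and dhs-16 followed it, but the dhs-16 regions were different ones. The best dhs-16 region lay 2736 bp beyond the gene in replicate 1 and 1839 bp upstream of it in replicate 2. The gene ncr-2 came next in replicate 1 (7.61) and was last in replicate 2 (2.85). The gene daf-36 came next in replicate 2 (4.34) and was last of the 8 genes with a region in replicate 1 (3.94). Since a signal has no error of its own, it cannot be said which neighbours in these orders differ. Any replicate 1 region was present at 8 of the 9 genes, against 91.6% of all genes, and any replicate 2 region at all 9, against 86.4%.

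**Figure D4:**
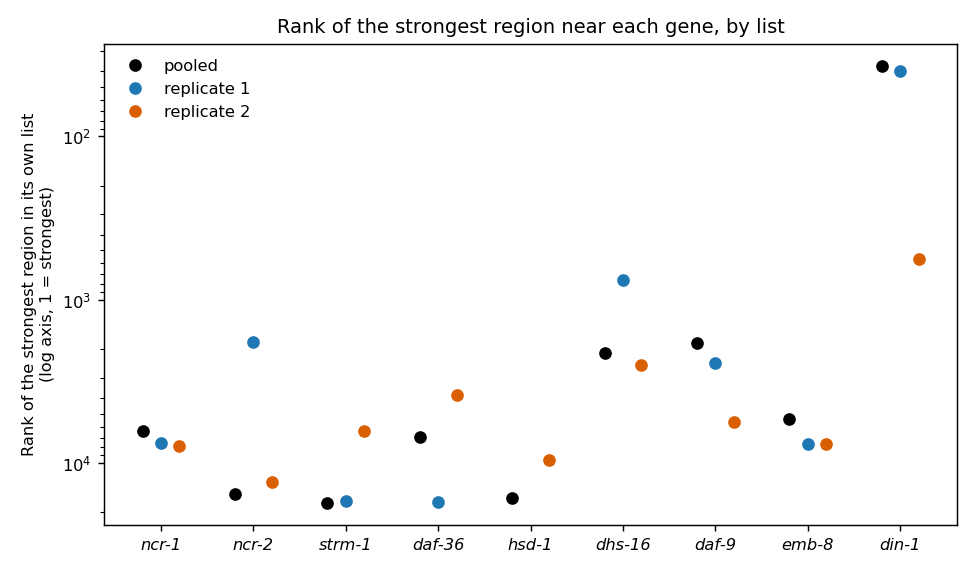
Rank of the strongest region within 3000 bp of each gene in its own list (y axis, log scale, 1 at the top), for the pooled list, replicate 1 and replicate 2; hsd-1 has no replicate 1 point. The lists differ in length, so heights compare genes within a list. The points of din-1 (37, 40 and 565) are the highest of each list.

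By position, 15 of the 49 regions lay upstream of the gene, 13 downstream and 21 inside it. Over all pairs of a gene and a pooled region in its window, these shares were 34.2%, 33.3% and 32.5%. Of those inside, 13 were in introns, 6 in coding exons, 1 in the 5' UTR of din-1 and 1 in the 3' UTR of emb-8. Between 1000 bp upstream and 200 bp downstream of an own start there were 12 regions, 6 of them at din-1, against 17.5% of all pairs. Of the 9 genes, 6 had one, against 40.2% of all genes. For 19 of the 49, the nearest coding start was that of another gene, against 51.5% of all pairs.

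Hexamers AGTGCA or AGGACA, on either strand within 100 bp of the summit, were present at 8 of the 49 regions, against 11.1% of all pooled regions. Of these, 4 lay at din-1 and 1 each at daf-9, dhs-16, hsd-1 and ncr-2. At gene level this is 5 of 9 genes, against 25.9% of all genes and 63.6% of genes with windows as long as that of din-1. Only the strongest din-1 region combined a hexamer with calls in both replicates. Its window held AGTGCA, and the only AGGACA among the 8 lay in a weak region upstream of din-1 (pooled signal 6.07). That site and the one of the ncr-2 region that ranked 1820 in replicate 1 are printed for comparison with the sites above. Capitals mark the hexamer, the first is on the minus strand (chrII:11634592-11634621) and the other on the plus strand (chrIII:8268402-8268431).
din-1 upstream region: tgaaaaaggatgAGGACAgatgcgtttttg
ncr-2 downstream region: gaagaataaaacAGTGCAaaataaatatgg
A match is a description of these letters and does not show a binding site.

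Other genes of sterol handling and DAF-12 function were taken as a list of 27, of which 26 matched by symbol. Of these, 9 had a pooled region at q below 0.05, against 13.7% of all genes, and 7 had one with calls in both replicates, against 8.18%. The 7 were daf-12, hid-1, chup-1, hsd-3, sin-3, mdt-15 and daf-41. These counts took no account of window length. The windows of the 9 genes ran from 6961 bp (daf-41) to 36968 bp (daf-12), against a median of 8027 bp over all genes. The only thresholded peak was 1846 bp beyond the end of sin-3, which encodes a corepressor scaffold (signal 21.02, ranks 635 and 44 in replicates 1 and 2), and it was nearest to F02E9.5. At daf-12, the tagged gene itself, 12 such regions lay in a window of 36968 bp, and extra copies of the locus on the transgene were not examined. At chup-1, which encodes a cholesterol uptake protein, the region lay 417 bp upstream of the start, with a pooled signal of 11.8 (rank 639) and signals of 7.99 and 2.35 in replicates 1 and 2. The mediator gene mdt-15 had one 2252 bp upstream (10.8), which was nearer to W04D12.1. Regions were nearer to another gene at hsd-3 (10.3) and daf-41 (10.7), and at hid-1 (10.6) the region was intronic.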

How the data were processed

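The deposited text lists name ChIP alignments plus a control as the source of the pooled list and of each replicate's list. They name these 3 lists as the source of the thresholded one. The aligner, the peak caller and the IDR cut-off are steps not given in the sources used here. The signal column holds the authors' enrichment value per region and the −log10 q-value column the q-value deposited by the authors; the smallest pooled q-value, 0.00826, is shared by 61 regions at q below 0.01. The ce11 lists were used and the ce10 lists were not used here. Genes came from Ensembl release 115 (WBcel235, ce11 coordinates), and bases from the RefSeq genome of that assembly. In it the coding sequences of all 18 annotated transcripts of the 9 genes began with ATG. No region ran past a chromosome end (0 regions).

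Summits were taken as start plus offset, 1-based. Replicate agreement was an overlap of at least 1 bp, and distances run from the summit. The steps were tested on simulated data. Python 3.11.15, numpy 2.4.6, pandas 2.3.3 and matplotlib 3.10.9 were used. No test was made, since there is 1 group. The genes and lists were chosen with earlier results of these data known. Each gene was described by its strongest pooled region, its regions at q below 0.05 and those in both replicates; genes of the further list were named with a thresholded peak or a region at q below 0.05 in both replicates. The labels name both replicates as biological.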

Additional observations from a re-analysis of the deposited data

How the results depend on the processing

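With summits within 1000 bp of a gene, the 49 pooled regions became 32, the 8 in both replicates 3, the 8 with a hexamer 5, and the 2 at q below 0.05 became 1, since the region upstream of din-1 lies farther out. Counting a region only for its nearest coding gene left 28 regions, 3 in both replicates and 5 with a hexamer. The upper 50% of the list by signal left 23 regions, 5 with a hexamer and 0 genes with a thresholded peak, since the din-1 peak is in the lower part of that list. Requiring summits within 100 bp of each other left 5 regions in both replicates. Hexamers within 50 bp were present at 4 regions and within 200 bp at 13.

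With 1 replicate left out, regions numbered 36 to 47, those with a hexamer 4 to 8, those at q below 0.05 10 to 20, and genes with such a region 4 to 9. Neither the thresholded peak nor recurrence in both replicates can be computed from 1 replicate. The number of genes with any region was 6 to 9 under all alternatives. For single genes, 14 of 36 counts moved by more than 1.5 times, among them hsd-1, which had 0 regions without replicate 2. No paired analysis was possible because both libraries belong to a single group. The lists hold no counts, and the limits set by depth could not be given.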

Other observations

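Among pooled regions with a pair of half-site hexamers on 1 strand, a spacing of 5 bp was present in 8 regions, a spacing of 7 bp in 5, and every other spacing from 0 to 10 bp in 0 to 4. The 8 regions with the 5 bp spacing were nearest to din-1, F22G12.5, lin-14, ulp-4, C35E7.10, gcn-1, cutl-12 and lit-1. Besides the din-1 region, those nearest to lin-14, a heterochronic gene, and to cutl-12 had calls in both replicates. In the pooled list they ranked 12297 (q = 0.455) and 26558 (q = 0.770). The region nearest to lit-1, a Nemo-like kinase gene, ranked 29166 and had no call in either replicate. These regions were listed after the din-1 site was known, and no test was made.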
